A study of Rattus norvegicus and Mus musculus with 24 samples.

Results

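The cytochrome P450 genes were followed in bulk RNA sequencing of kidney from Ctns knockout and control animals of 2 rodent species. Members were all rows whose gene symbol reads CYP, digits and a letter; 4 such symbols, CYP27B1, CYP24A1, CYP2R1 and CYP51A1, were left out. This gave 36 of the 17376 symbols of the mouse table and 45 of the 14931 symbols of the rat table, 50 different symbols of 18043 in either table, of which 31 stood in both. Ctns encodes the lysosomal cystine transporter. The mouse groups were 4 CTNS KO and 4 CTNS WT animals on a C57BL/6 background, and the rat groups were 8 CTNS KO and 8 CTNS WT animals on a Sprague-Dawley background, with 1 library per animal and littermates as controls. All animals were from a Ctns knockout line or were control littermates, no further allele or agent is given for any group, and the labels give neither age nor sex. The rats carry the numbers 17 to 24 and 25 to 32, with 4 KO and 4 WT animals in each range, and what the ranges stand for is not labelled. Sex, age, litter and processing day therefore cannot be told apart from the number range.

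P450 enzymes are haem proteins that insert oxygen into fatty acids, sterols, steroids, retinoids and foreign compounds. Most sit in the endoplasmic reticulum and take electrons from P450 oxidoreductase and cytochrome b5, and a mitochondrial group takes them from ferredoxin. In the kidney the proximal tubule is the main site of the fatty acid enzymes: CYP2C and CYP2J epoxygenases turn arachidonic acid into vasoactive epoxides, and CYP4A and CYP4F enzymes hydroxylate it at the end of the chain.

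Promoters are shown for 4 rat genes that the results turn on. In KO rats 25 to 32 the symbols of 3 fell (Cyp2c23, Cyp2e1 and Cyp2f4) and that of 1 rose (Cyp27a1). Each window runs from 250 bases before to 50 bases after the RefSeq start on the GRCr8 assembly, 5′ to 3′ on the gene's strand. Cyp2c23 lies at chr1:252863018-252863317 on the minus strand, Cyp2e1 at chr1:205269717-205270016, Cyp2f4 at chr1:91543518-91543817 and Cyp27a1 at chr9:83713282-83713581, all 3 on the plus strand. Capitals mark every match, on either strand, to 4 motifs, whose matches do not overlap here. They are AGGTCA as the core read by nuclear receptors such as HNF4A and PPARA, the CCAAT box, the TATA box in its form TATAAA and, for the aryl hydrocarbon receptor, the core GCGTG.
Cyp2c23: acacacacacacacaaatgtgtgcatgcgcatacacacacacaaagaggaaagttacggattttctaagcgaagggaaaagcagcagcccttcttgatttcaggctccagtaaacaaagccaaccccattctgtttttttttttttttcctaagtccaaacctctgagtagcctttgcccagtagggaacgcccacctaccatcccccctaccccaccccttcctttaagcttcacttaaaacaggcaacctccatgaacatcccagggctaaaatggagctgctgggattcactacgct
Cyp2e1: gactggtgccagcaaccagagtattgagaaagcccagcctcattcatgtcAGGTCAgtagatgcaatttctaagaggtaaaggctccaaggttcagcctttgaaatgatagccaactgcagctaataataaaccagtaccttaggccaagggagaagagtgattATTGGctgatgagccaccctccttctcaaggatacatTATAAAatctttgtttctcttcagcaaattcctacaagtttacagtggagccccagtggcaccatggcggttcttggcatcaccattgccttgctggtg
Cyp2f4: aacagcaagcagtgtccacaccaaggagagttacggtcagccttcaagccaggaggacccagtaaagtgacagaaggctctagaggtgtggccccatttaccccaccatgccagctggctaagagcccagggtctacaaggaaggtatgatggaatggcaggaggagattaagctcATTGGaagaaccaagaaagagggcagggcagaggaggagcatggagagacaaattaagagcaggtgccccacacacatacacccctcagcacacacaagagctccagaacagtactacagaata
Cyp27a1: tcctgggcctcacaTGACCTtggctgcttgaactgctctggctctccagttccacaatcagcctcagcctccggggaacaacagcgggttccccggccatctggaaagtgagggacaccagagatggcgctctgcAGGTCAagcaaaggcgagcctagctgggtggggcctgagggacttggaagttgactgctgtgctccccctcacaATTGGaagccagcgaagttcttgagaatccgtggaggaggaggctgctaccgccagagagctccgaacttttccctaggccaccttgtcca
Of 33469 rat promoters of this length, AGGTCA stood in 16.2%, CCAAT in 37.5%, TATAAA in 14.2% and GCGTG in 29.7%. The Cyp2c23 window held none of these letters. The Cyp2e1 window held the nuclear receptor core, the CCAAT box on the minus strand and the TATA box. In the Cyp2f4 window the CCAAT box on the minus strand was the only match, and the Cyp27a1 window held the nuclear receptor core on each strand and the CCAAT box on the minus strand. A match is a description of letters and not evidence of binding.

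Depth was 19309449 to 44449859 reads on genes per mouse and 24684097 to 40629873 per rat. Levels below are CPM, the reads scaled to a library total of 1000000, which are not corrected for gene length. On this scale the median of all symbols tested stood 0.15 higher (log2) in KO than in WT rats 25 to 32, at -0.12 in WT rats 25 to 32 against WT rats 17 to 24, and 0.01 to 0.07 higher in KO in the other comparisons; the fold changes from edgeR are taken after TMM scaling, which centres them. In mice CTNS had 15.5 to 16.9 CPM in KO and 39.0 to 47.4 CPM in WT animals, whereas in rats it had 16.9 to 22.96 CPM in KO and 18.99 to 26.4 CPM in WT animals, so the rat transcript level does not check the rat labels. Tissue and cell type are labelled kidney cortex and proximal tubule cells. All 7 proximal tubule markers of the mouse table and the 5 of 7 found in the rat table had reads, but so did the markers of distal nephron, podocytes, endothelium, macrophages and fibroblasts, and none of these lists had a marker at 0. In bulk tissue, fewer cells of a type and less RNA per cell cannot be told apart.

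Many members had few or no reads. In mice, CYP19A1, CYP2G1P, CYP2T1P and CYP7A1 had no read in any library, a count that allows at most 3 reads per library, and 16 of 36 members stayed under 10 reads in every mouse. In rats, 9 members had none (among them CYP19A1, CYP1A2, CYP2A6, CYP2C19, CYP2C8, CYP2G1P, CYP3A5 and CYP7A1), and 17 of 45 stayed under 10 reads in every rat. CYP7A1, the liver enzyme that starts bile acid synthesis, and CYP19A1, the aromatase, were thus without reads in both species. At the other end, 16 mouse and 17 rat members reached 100 reads in some library.

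The tables name rodent genes by human symbols, so several genes can stand under 1 symbol. In mice the values of 4 members were not whole reads. CYP2J2 values were multiples of 1/8 of a read, and 8 protein-coding Cyp2j genes are annotated in the mouse (GENCODE vM21). CYP2B6 values were multiples of 1/5, with 5 annotated Cyp2b genes. CYP3A5 and CYP4A11 values were multiples of 1/5 and 1/3, while 9 Cyp3a and 8 Cyp4a genes are annotated. The divisor therefore need not equal the size of the family. In rats 6 members were not whole reads, namely CYP2B6, CYP2C18, CYP2D6, CYP2D7, CYP2J2 and CYP4A11. For these symbols a level belongs to a gene family rather than to 1 gene, and CYP11B1 and CYP11B2 held identical rat values. How the values of several genes were combined is not given, so shares and ranks below take each value as it stands.

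The P450 share of all reads was 0.129% ± 0.0169 (SD, n = 4) in KO and 0.174% ± 0.0497 (SD, n = 4) in WT mice. In rats 17 to 24 it was 0.415% ± 0.0329 (SD, n = 4) in KO and 0.48% ± 0.0296 (SD, n = 4) in WT animals. In rats 25 to 32 it was 0.287% ± 0.0324 (SD, n = 4) in KO and 0.475% ± 0.0295 (SD, n = 4) in WT animals. The KO rats 25 to 32 were the group furthest below its controls, with no overlap (0.25% to 0.329% against 0.449% to 0.502%). Most of this share was 1 symbol, CYP2C23P, with a mean of 1724 CPM in KO and 3198 CPM in WT rats of that range. The share therefore does not describe a fall of the family, and of the members called there 6 were higher and 6 lower in KO. In mice CYP4A11 alone ran from 174 to 360 CPM in KO and from 205 to 1145 CPM in WT animals. The symbols with the highest levels were CYP4A11, CYP4B1 and CYP2J2 in mice (means over all 8 of 417, 402 and 178 CPM) and CYP2C23P, CYP2E1 and CYP4A11 in rats (means over all 16 of 2641, 620 and 505 CPM). CYP4B1 was not among the rat symbols.

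In mice, the comparison of genotypes found 1 of 36 members past the threshold (adjusted p under 0.05 from limma), and it was lower in KO. Of all symbols 4.32% were called, 3.5% higher and 0.817% lower in KO. Nothing particular to P450 genes is read from 1 call. The member was CYP2C23P, the human symbol of the gene called Cyp2c23 in rodents, which encodes the main arachidonic acid epoxygenase of the rodent kidney; the mouse gene lies at chr19:44005022-44029208 on the minus strand of GRCm38. Its level was 76.6, 76.5, 60.8 and 87.5 CPM in KO mice 3, 5, 6 and 8 and 132, 123, 109 and 106 CPM in WT mice 1, 2, 4 and 7. Every KO mouse was below every WT mouse. The log2 fold change was -0.47 on the log2(value + 1) scale, which understates changes of low values (standard error, SE, 0.08, adjusted p = 0.0202, limma). On reads recovered from the scaled values it was -0.73 (SE 0.10, adjusted p = 0.0008, edgeR). Without KO mouse 3, KO mouse 5 or WT mouse 2 the limma call was lost, with adjusted p of 0.0513, 0.057 and 0.0514.

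**Figure D1:**
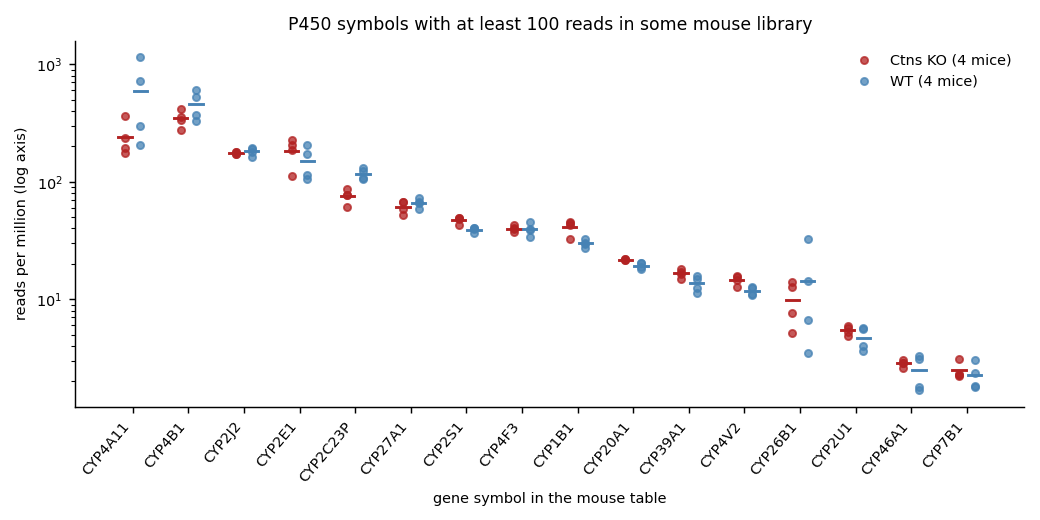
CPM (log axis) of the 16 P450 symbols with at least 100 reads in some mouse library, 1 point per mouse and a bar at each group mean. CYP2C23P is separate between genotypes (60.8 to 87.5 against 106 to 132 CPM), and CYP4A11 spreads widely among WT mice (205 to 1145 CPM).

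The 3 mouse symbols with the highest levels overlapped between genotypes and were not called. CYP4A11, the fatty acid omega-hydroxylases, had 234, 192, 174 and 360 CPM in KO mice 3, 5, 6 and 8 and 727, 205, 1145 and 299 CPM in WT mice 1, 2, 4 and 7. The groups overlapped, with WT mice 1 and 4 far above the other 6 animals (log2 fold change -0.99, SE 0.50, adjusted p = 0.359, limma). CYP4B1, a relative that hydroxylates medium-chain fatty acids and activates some toxins, was also highest in the same WT mice, at 525 and 601 CPM, against 330 and 372 CPM in the other WT and 273 to 418 CPM in the KO mice (log2 fold change -0.40, SE 0.19, adjusted p = 0.328, limma). CYP2J2, the other epoxygenase family, was even, with 172 to 180 CPM in KO and 161 to 193 CPM in WT mice (log2 fold change -0.09, SE 0.05, adjusted p = 0.481, limma).

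Of the 36 mouse members, 4 were higher in every KO mouse than in every WT mouse without being called. Of all symbols 12.5% were higher in this way and 1.48% lower, so the count of 4 is near the background. They are named after their values were seen. CYP1B1, an enzyme of oestrogen and foreign compound oxidation, had 42.9, 44.5, 45.0 and 32.8 CPM in KO mice 3, 5, 6 and 8 and 29.7, 27.1, 32.3 and 30.3 CPM in WT mice 1, 2, 4 and 7. KO mouse 8 was just above the highest WT mouse. The change was not called by limma (log2 fold change 0.17, SE 0.05, adjusted p = 0.114) but was called on recovered reads (0.37, SE 0.10, adjusted p = 0.0263, edgeR). CYP2S1 had 42.9 to 49.2 CPM in KO and 36.5 to 40.1 CPM in WT mice and was called by neither test (adjusted p = 0.117, limma, and 0.103, edgeR). CYP4V2 and CYP20A1 made up the rest. CYP2E1, which oxidizes ethanol and other small molecules, had 111 to 226 CPM in KO and 105 to 207 CPM in WT mice, overlapping over nearly the whole range.

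Over all 16 rats, 22 members passed the filter on low reads and 5 were called, 1 higher and 4 lower in KO (edgeR). The background was 27.5% of all symbols tested, 15.2% higher and 12.3% lower. In rats 17 to 24 alone 1 of 21 members was called, lower in KO, against 7.26% of all symbols (5.07% higher, 2.19% lower). In rats 25 to 32 alone 12 of 22 were called, 6 higher and 6 lower, against 43.8% of all symbols (21.8% higher, 22.1% lower). The share of members called was thus 22.7%, 4.76% and 54.5%, beside those shares of all symbols, and nothing particular to P450 genes is read from these counts. With a covariate for the number range, 10 members were called over all rats, 4 higher and 6 lower, against 38.4% of all symbols in that fit (19.3% higher, 19% lower). Members whose CPM did not overlap between genotypes were 1 higher and 1 lower in KO of 22 over all rats (5.21% and 0.95% of all symbols), 1 and 3 of 21 in rats 17 to 24 (8.46% and 4.45%), and 7 and 4 of 22 in rats 25 to 32 (35.3% and 8.73%). The median log2 fold change of the members tested was 0.01 over all rats, -0.21 in rats 17 to 24 and 0.07 in rats 25 to 32, beside -0.02, -0.00203 and -0.01 over all symbols.

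**Figure D2:**
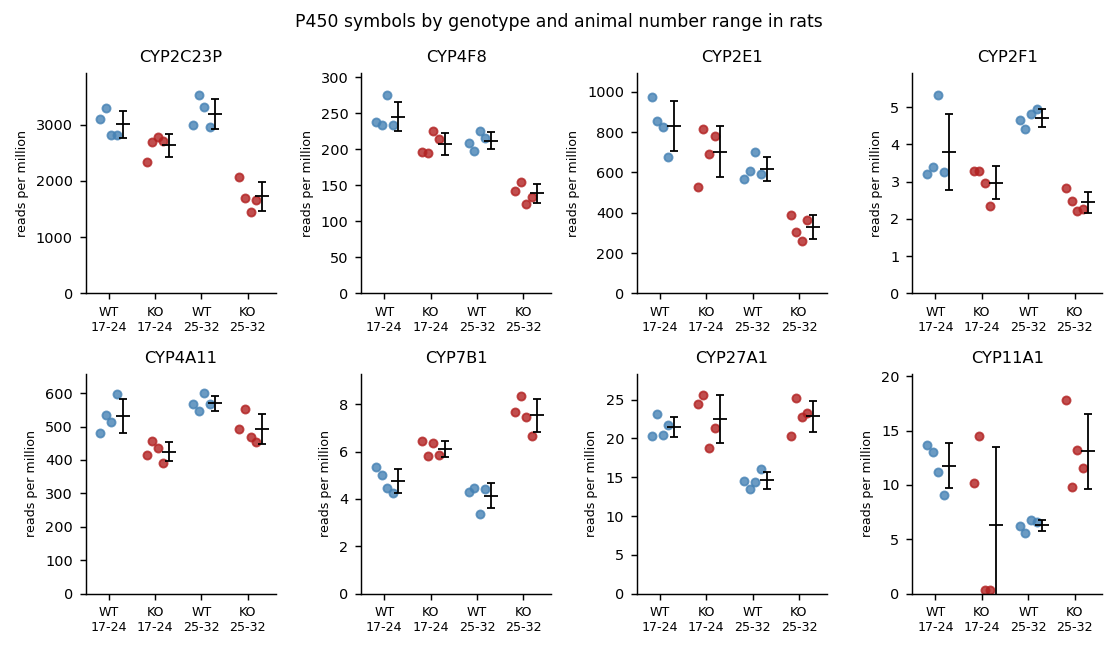
CPM of 8 P450 symbols in rats by genotype and number range, 1 point per rat with mean and SD beside them; every axis starts at 0, and the SD bar of CYP11A1 in KO rats 17 to 24 is clipped there. CYP2C23P, CYP4F8, CYP2E1 and CYP2F1 are lowest in KO rats 25 to 32, CYP7B1 is highest there, and KO rats 22 and 24 stand near 0 for CYP11A1.

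Among the epoxygenases, CYP2C23P fell in KO rats as it did in KO mice. In rats 25 to 32 it had 2076, 1703, 1447 and 1670 CPM in KO rats 26, 28, 30 and 32 and 2999, 3523, 3310 and 2960 CPM in WT rats 25, 27, 29 and 31. Its level in rats 17 to 24 was 2338, 2695, 2781 and 2720 CPM in KO rats 18, 20, 22 and 24 and 3109, 3298, 2811 and 2814 CPM in WT rats 17, 19, 21 and 23. The genotypes were separate in each range, by a wide gap in the later numbers and a narrow one in the earlier. The log2 fold change was -1.05 in rats 25 to 32 (SE 0.11, adjusted p = 6.137e-05, edgeR), a level in KO of 0.483 times that in WT, and -0.21 in rats 17 to 24 (SE 0.07, adjusted p = 0.0957, edgeR). Over all rats it was -0.60 (SE 0.13, adjusted p = 0.00288, edgeR).

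CYP2J2 moved the other way. It had 5.59, 8.64, 6.68 and 7.58 CPM in KO rats 26, 28, 30 and 32 and 4.73, 3.64, 3.40 and 4.78 CPM in WT rats 25, 27, 29 and 31. Every KO rat of this range was above every WT rat (log2 fold change 0.62, SE 0.18, adjusted p = 0.016, edgeR). Its level in rats 17 to 24 was 2.32 to 2.79 CPM in KO and 1.87 to 2.60 CPM in WT animals, which overlapped (log2 fold change 0.19, SE 0.17, adjusted p = 0.594, edgeR). CYP2J2 values of the rat were multiples of 1/2 of a read, and several Cyp2j genes may stand behind them.

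Among the fatty acid hydroxylases of family CYP4, CYP4A11 was the only member called in each rat range. It had 414, 457, 436 and 392.2 CPM in KO rats 18, 20, 22 and 24 and 480, 536, 513 and 597 CPM in WT rats 17, 19, 21 and 23. No KO rat of this range reached a WT rat, and the log2 fold change was -0.34 (SE 0.07, adjusted p = 0.0145, edgeR); without KO rat 24 the call was lost (-0.30, adjusted p = 0.0569, edgeR). In rats 25 to 32 it had 492.6, 554, 470 and 455 CPM in KO rats 26, 28, 30 and 32 and 566, 546, 600 and 567 CPM in WT rats 25, 27, 29 and 31. Here KO rat 28 lay above WT rat 27, and the log2 fold change was -0.37 (SE 0.08, adjusted p = 0.00302, edgeR). Over all rats the change was -0.36 (SE 0.08, adjusted p = 0.00263, edgeR).

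CYP4F8 had 142, 155, 125 and 133 CPM in KO rats 26, 28, 30 and 32 and 208, 197, 225 and 216 CPM in WT rats 25, 27, 29 and 31. The earlier numbers had 196, 194, 226 and 214 CPM in KO rats 18, 20, 22 and 24 and 238, 234, 275 and 233 CPM in WT rats 17, 19, 21 and 23. KO rats were below WT rats without overlap in each range. The log2 fold change was -0.77 in rats 25 to 32 (SE 0.09, adjusted p = 6.898e-05, edgeR) and -0.26 in rats 17 to 24 (SE 0.07, adjusted p = 0.0559, edgeR). Over all rats it was -0.49 (SE 0.12, adjusted p = 0.00528, edgeR). CYP4F enzymes hydroxylate eicosanoids such as leukotrienes; which of the rat Cyp4f genes stands under this human symbol is not given in the sources used here.

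CYP4V2, a fatty acid hydroxylase whose loss in people causes a retinal dystrophy, rose in rats 25 to 32. It had 41.5, 33.9, 40.6 and 39.3 CPM in KO rats 26, 28, 30 and 32 and 28.3, 29.2, 27.1 and 27.99 CPM in WT rats 25, 27, 29 and 31. These groups did not overlap (log2 fold change 0.30, SE 0.08, adjusted p = 0.00917, edgeR), while those of rats 17 to 24 did (38.6 to 50.3 against 33.9 to 45.7 CPM).

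Among the enzymes of foreign compounds, CYP2E1 had 388, 303, 262 and 364 CPM in KO rats 26, 28, 30 and 32 and 567, 605, 703 and 594 CPM in WT rats 25, 27, 29 and 31. The earlier numbers had 529, 812, 689 and 782 CPM in KO rats 18, 20, 22 and 24 and 974.9, 855, 823 and 674 CPM in WT rats 17, 19, 21 and 23. The genotypes were separate in the later numbers and overlapped in the earlier ones. The log2 fold change was -1.06 in rats 25 to 32 (SE 0.13, adjusted p = 0.000143, edgeR), -0.26 in rats 17 to 24 (SE 0.14, adjusted p = 0.34, edgeR) and -0.57 over all rats, where it was not called (SE 0.22, adjusted p = 0.0587, edgeR). A covariate for the range made it called over all rats (-0.67, SE 0.14, adjusted p = 0.00159, edgeR).

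CYP2F1, the symbol for the enzyme that rats carry as Cyp2f4 and that activates naphthalene in the airway, was at a far lower level. It had 2.83, 2.47, 2.21 and 2.27 CPM in KO rats 26, 28, 30 and 32 and 4.66, 4.41, 4.82 and 4.95 CPM in WT rats 25, 27, 29 and 31. The groups were separate, with a log2 fold change of -1.10 (SE 0.14, adjusted p = 0.000143, edgeR). Levels in rats 17 to 24 were 2.34 to 3.29 CPM in KO and 3.20 to 5.31 CPM in WT rats, which overlapped (log2 fold change -0.37, SE 0.20, adjusted p = 0.307, edgeR). Over all rats the change was -0.75 (SE 0.15, adjusted p = 0.00155, edgeR). CYP2S1, an enzyme found mainly in epithelia, fell by 0.27 on the log2 scale in rats 25 to 32 (SE 0.10, adjusted p = 0.0467, edgeR), with overlapping groups (14.5 to 19.3 against 16.02 to 19.8 CPM). Leaving out any of 6 of the 8 rats ended that call (highest adjusted p = 0.127, edgeR, without WT rat 25).

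Members that act on sterols rose in rats where they were called between genotypes. CYP7B1, the oxysterol 7-alpha-hydroxylase, was the single member higher in KO over all rats. It had 7.67, 8.36, 7.47 and 6.64 CPM in KO rats 26, 28, 30 and 32 and 4.31, 4.48, 3.36 and 4.42 CPM in WT rats 25, 27, 29 and 31. Levels in rats 17 to 24 were 6.45, 5.80, 6.38 and 5.88 CPM in KO rats 18, 20, 22 and 24 and 5.36, 4.995, 4.48 and 4.24 CPM in WT rats 17, 19, 21 and 23. All 8 KO rats were above all 8 WT rats. The log2 fold change was 0.53 over all rats (SE 0.10, adjusted p = 0.00079, edgeR), 0.70 in rats 25 to 32 (SE 0.13, adjusted p = 0.00165, edgeR) and 0.35 in rats 17 to 24 (SE 0.12, adjusted p = 0.0951, edgeR).

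CYP27A1, the mitochondrial sterol 27-hydroxylase, had 20.3, 25.1, 22.7 and 23.3 CPM in KO rats 26, 28, 30 and 32 and 14.6, 13.4, 14.3 and 16.1 CPM in WT rats 25, 27, 29 and 31. KO was above WT in every animal of this range (log2 fold change 0.48, SE 0.10, adjusted p = 0.00277, edgeR). The groups of rats 17 to 24 overlapped, with 18.7 to 25.6 CPM in KO and 20.4 to 23.2 CPM in WT animals (log2 fold change 0.06, SE 0.09, adjusted p = 0.792, edgeR). CYP39A1, which hydroxylates 24-hydroxycholesterol, was not called between genotypes in either range.

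CYP11A1, the side-chain cleavage enzyme that starts steroid hormone synthesis from cholesterol, had 17.8, 9.80, 13.2 and 11.6 CPM in KO rats 26, 28, 30 and 32 and 6.24, 5.61, 6.79 and 6.56 CPM in WT rats 25, 27, 29 and 31. These groups were separate (log2 fold change 0.90, SE 0.18, adjusted p = 0.0023, edgeR). In rats 17 to 24 it had 10.1, 14.5, 0.362 and 0.353 CPM in KO rats 18, 20, 22 and 24 and 13.7, 13.1, 11.2 and 9.08 CPM in WT rats 17, 19, 21 and 23. KO rats 22 and 24 thus had 10 and 11 reads, while the other 14 rats had 178 to 555. Within 1 fit of all 16 rats, whose spread includes these animals, the change in rats 25 to 32 was 0.89 and not called (adjusted p = 0.305, edgeR).

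Other steroid genes were low, and at so few reads whether they followed CYP11A1 could not be judged. In the later numbers their means were higher in KO than in WT rats, but none was called without the filter (edgeR). These means were 0.499 and 0.332 CPM for CYP17A1 and 0.0925 and 0.0149 CPM for CYP11B1 and for CYP11B2. For CYP21A2, named after its values were seen and with at most 26 reads in any rat, they were 0.472 and 0.141 CPM. CYP11B1 and CYP11B2 had at most 9 reads in any rat, and CYP17A1 had 5 to 24. Of the adrenal cortex markers, STAR had 0.693 to 1.65 CPM and MC2R at most 0.499 CPM in all rats, NR5A1 had no read in WT rats 17 to 24 and at most 6 in any rat, and MRAP had 9.41 to 18.5 CPM. Without the filter NR5A1 was called higher in KO over all rats (log2 fold change 2.58, SE 0.86, adjusted p = 0.036, edgeR), on these few reads. The summed level of these 4 markers was 11.4 to 12.8 CPM in KO rats 17 to 24. MRAP alone had 9.41 to 11.2 CPM of it, so the sum says little of the other markers. The part of adrenal cells in the CYP11A1 levels was not tested. In mice CYP11A1 had no read in WT animals and at most 0.191 CPM in KO animals.

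CYP26A1, which degrades retinoic acid, had 1.22, 1.16, 1.29 and 1.13 CPM in KO rats 26, 28, 30 and 32 and 0.701, 0.640, 0.693 and 0.758 CPM in WT rats 25, 27, 29 and 31. The groups were separate at these low levels (log2 fold change 0.62, SE 0.18, adjusted p = 0.0183, edgeR). The call was lost with DESeq2 (adjusted p = 0.0555), in 1 fit of all 16 rats (adjusted p = 0.0594, edgeR) and without WT rat 27 (adjusted p = 0.061, edgeR). Rats 17 to 24 had 0.321 to 1.12 CPM in KO and 0.768 to 1.16 CPM in WT rats.

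CYP1B1, which was too low for the filter, is named after its values were seen. It had 3, 2, 15 and 8 reads in KO rats 18, 20, 22 and 24, 10, 21, 31 and 3 reads in KO rats 26, 28, 30 and 32, and 0 to 4 reads in the WT rats. The sum was 93 reads in KO and 10 in WT rats, a ratio of shares of 9.98 with a counting interval of 5.19 to 21.5 at 95%, which covers counting error only. Without the filter it was called over all rats (log2 fold change 3.07, SE 0.65, adjusted p = 0.00233, edgeR), and its KO and WT animals overlapped by 3 of 8 KO rats having no more than 4 reads.

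**Figure D3:**
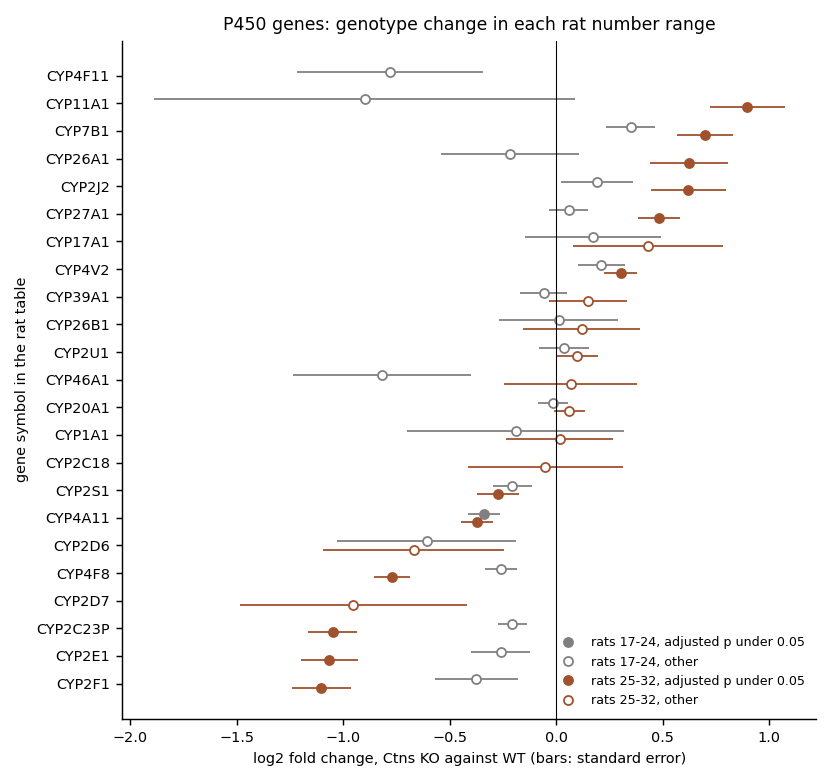
Log2 fold change of KO against WT with its SE for the P450 symbols tested in rats 17 to 24 (grey) and 25 to 32 (brown); filled points have an adjusted p under 0.05. CYP2C23P, CYP2E1 and CYP4F8 sit further left in rats 25 to 32, at -1.05, -1.06 and -0.77, than in rats 17 to 24, at -0.21, -0.26 and -0.26.

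A call in 1 range and not in the other is not a test of a difference, so the difference itself was tested as an interaction of genotype and number range. Of 25 members tested, 3 were called, against 14.7% of all symbols. All 3 fell further in KO rats 25 to 32 than in KO rats 17 to 24. The difference of the log2 fold changes was -0.84 for CYP2C23P (SE 0.14, adjusted p = 0.0012, edgeR), -0.80 for CYP2E1 (SE 0.21, adjusted p = 0.0186, edgeR) and -0.51 for CYP4F8 (SE 0.12, adjusted p = 0.0113, edgeR). CYP27A1 and CYP2F1 came next, with differences of 0.43 (SE 0.14, adjusted p = 0.0505, edgeR) and -0.73 (SE 0.24, adjusted p = 0.055, edgeR), neither past the threshold. For CYP4A11 the difference was -0.03 with a SE of 0.11 (adjusted p = 0.878, edgeR) and changed sign when any 1 of 3 rats was left out. For CYP11A1 it was 1.80 with a SE of 0.98 (adjusted p = 0.221, edgeR), in a fit that includes KO rats 22 and 24.

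Markers of cell types moved with genotype in the same animals. The summed proximal tubule markers (5 of 7 in the table, none at 0) were 8533 to 10340 CPM in WT and 7351 to 7924 CPM in KO rats 17 to 24, and 10040 to 11340 CPM in WT and 5756 to 6803 CPM in KO rats 25 to 32. SLC34A1 made up most of this sum, with a mean of 6004 CPM in WT and 3527 CPM in KO rats 25 to 32. All 5 markers were called lower in KO rats of that range (edgeR), CUBN the least, with means of 508 and 438 CPM. The segment 3 list (4 of 4, none at 0) was 366 to 495 CPM in WT and 237 to 346 CPM in KO rats 25 to 32, but overlapped in rats 17 to 24 (471 to 624.9 and 445 to 559 CPM) and in mice (628 to 1283 and 752 to 1052 CPM). ATP11A made up most of this sum, with a mean of 345 CPM in WT and 221 CPM in KO rats 25 to 32, while SLC7A13 and SLC22A7 had means of 14.7 and 0.726 CPM in WT and 18.9 and 1.55 CPM in KO rats of that range. The list of segments 1 and 2 (3 of 3, none at 0) was 1293 to 1582 CPM in WT and 1254 to 1474 CPM in KO rats 25 to 32, overlapping. Distal nephron markers (3 of 5 in the rat table, none at 0) were 2596 to 3283 CPM in WT and 4073 to 4912 CPM in KO rats 25 to 32, and overlapped in rats 17 to 24 (3825 to 4299 and 4078 to 4483 CPM). UMOD made up most of the distal sum, with a mean of 1878 CPM in WT and 3258 CPM in KO rats 25 to 32. CALB1 had means of 622 and 981 CPM there. SLC12A1 had 401 and 426 CPM and was not called (adjusted p = 0.65, edgeR). Macrophage markers (4 of 4, none at 0) were 61.7 to 73.3 CPM in WT and 123 to 163 CPM in KO rats 25 to 32, and 50.7 to 66.5 and 78.9 to 90.6 CPM in rats 17 to 24. Fibroblast markers (3 of 3, none at 0) were 98.6 to 116 CPM in WT and 165 to 192 CPM in KO rats 25 to 32, and 103 to 114 and 109 to 150 CPM in rats 17 to 24. In mice, proximal tubule markers overlapped (13010 to 13670 CPM in KO, 12890 to 17130 CPM in WT), while macrophage markers were 103 to 114 CPM in KO and 72.2 to 86.8 CPM in WT animals, fibroblast markers 158 to 189 and 87.4 to 113 CPM, and distal nephron markers (5 of 5) 9569 to 10500 and 7760 to 9034 CPM. Podocyte and endothelium lists overlapped between genotypes in mice and in each rat range. The part of these shifts in the P450 changes was not tested.

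The number ranges also differed among WT rats, where genotype plays no part. Of 22 members tested, 9 were called between rats 25 to 32 and rats 17 to 24, against 18.3% of all symbols. Of these, 4 were higher in the later numbers (background 8.79%) and 5 lower (background 9.54%). Among the 9, CYP2C18 reached the filter on low reads in none of the 4 WT rats 17 to 24 and CYP2D7 in 2 of them, so each passed through the later rats, where it is high. Nothing particular to P450 genes is read from the count, and no test is given for these symbols. CYP2C18 had 1, 1, 1 and 0 reads in WT rats 17, 19, 21 and 23 and 83, 78, 32 and 29 reads in WT rats 25, 27, 29 and 31. KO rats followed, with 1 to 5 reads in the earlier and 31 to 66 reads in the later numbers. Summed over WT rats this was 3 against 222 reads, a ratio of shares of 70.0 with a counting interval of 23.6 to 342 at 95%, which covers counting error only. CYP2C enzymes are known in rats for forms that differ between the sexes.

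CYP2D6 and CYP2D7, symbols of a family that oxidizes many amine compounds, were higher in the later numbers too. CYP2D6 had 0.9999, 0.375, 0.430 and 0.471 CPM in WT rats 17, 19, 21 and 23 and 3.75, 3.84, 6.59 and 6.86 CPM in WT rats 25, 27, 29 and 31 (log2 fold change 3.35, SE 0.34, adjusted p = 0.00014, edgeR). CYP2D7 had 0.153 to 0.560 CPM in the first and 0.876 to 2.31 CPM in the second. These ranges did not overlap, and the 2 symbols may share reads since neither holds whole numbers. CYP2J2 was 1.87 to 2.60 CPM in the first and 3.40 to 4.78 CPM in the second (log2 fold change 1.02, SE 0.18, adjusted p = 0.00328, edgeR).

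**Figure D4:**
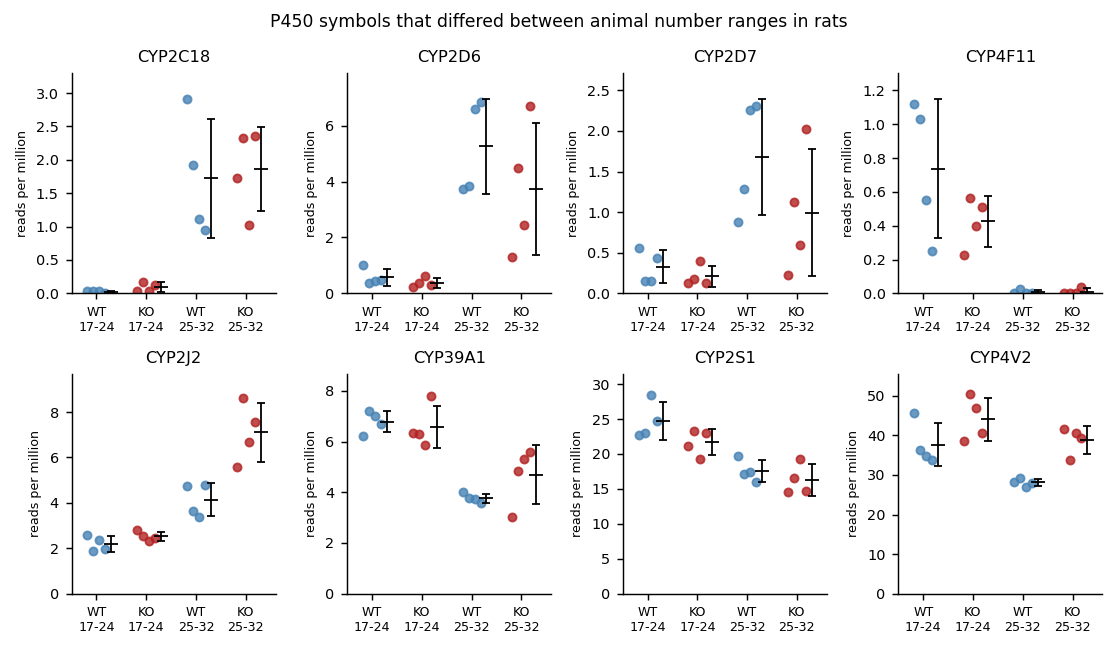
CPM of 8 P450 symbols by genotype and number range in rats, 1 point per rat with mean and SD beside them; every axis starts at 0. CYP2C18 is near 0 in rats 17 to 24 of either genotype and CYP4F11 near 0 in rats 25 to 32.

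In the opposite direction, CYP39A1 was 6.24 to 7.21 CPM in WT rats 17 to 24 and 3.56 to 3.99 CPM in WT rats 25 to 32 (log2 fold change -0.74, SE 0.10, adjusted p = 0.000769, edgeR). CYP11A1 was 9.08 to 13.7 CPM in the first and 5.61 to 6.79 CPM in the second (log2 fold change -0.79, SE 0.14, adjusted p = 0.00284, edgeR). CYP27A1 was 20.4 to 23.2 CPM in the first and 13.4 to 16.1 CPM in the second (log2 fold change -0.45, SE 0.09, adjusted p = 0.00466, edgeR). The ranges did not overlap for CYP39A1, CYP11A1 and CYP27A1. Of the 22 members tested, 8 were lower in every later WT rat, against 20.1% of all symbols, and 4 higher, against 5.94%. The sterol hydroxylases CYP7B1 and CYP46A1 were not called between the WT ranges (log2 fold changes -0.09 and -0.05, adjusted p = 0.698 and 0.92, edgeR). CYP2S1 was lower as well (log2 fold change -0.39, SE 0.10, adjusted p = 0.0175, edgeR), as was CYP4V2 (-0.31, SE 0.10, adjusted p = 0.0466, edgeR), whose call was lost in 8 of 10 alternatives (adjusted p up to 0.118, edgeR).

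CYP4F11 was too low for this test and is named after its values were seen. It had 28, 33, 18 and 8 reads in WT rats 17, 19, 21 and 23 and 0, 1, 0 and 0 reads in WT rats 25, 27, 29 and 31. KO rats showed the same split, with 7, 16, 11 and 16 reads in KO rats 18, 20, 22 and 24 and 0, 0, 0 and 1 in KO rats 26, 28, 30 and 32. The ratio of shares between the earlier and the later WT rats was 92.0 with a counting interval of 16.1 to 3674 at 95%, covering counting error only. CYP4F11 and CYP2C18 therefore split the rats by number range in opposite directions and in either genotype.

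Several members that differed between WT ranges were also those that rose in KO rats 25 to 32. CYP27A1 in KO rats 25 to 32 (20.3 to 25.1 CPM) reached the level of WT rats 17 to 24 (20.4 to 23.2 CPM), and CYP4V2 did likewise (33.9 to 41.5 against 33.9 to 45.7 CPM). CYP2J2 in KO rats 25 to 32 (5.59 to 8.64 CPM) instead stood above every other rat. Both comparisons use the WT rats 25 to 32, so the values are given side by side and their likeness was not tested.

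Between species, the genotype change was compared over members present in the mouse table and past the rat filter. None of 18 was called (limma), against 3.17% of all symbols, while 5 had an unadjusted p under 0.05, and edgeR on the reads of both species called none. The nearest was CYP7B1, with a difference of rat less mouse of 0.06 on the log2(scaled value + 1) scale (SE 0.02, adjusted p = 0.0519, limma). That scale understates changes of low values such as those of CYP7B1. With a pseudocount of 0.1 (limma) and with edgeR on reads, its difference was 0.28 to 0.52 and was not called (adjusted p of 0.0891 to 0.171). For CYP2C23P the difference was -0.12 with a SE of 0.20 (adjusted p = 0.785, limma), and its sign turned with a pseudocount of 0.1 (0.08, limma) and with edgeR on reads (0.16). For CYP2E1 it was -0.75 with a SE of 0.33 (adjusted p = 0.23, limma). These errors do not show that the species respond alike.

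Genes that P450 enzymes depend on were followed as a list of 28: electron donors, epoxide hydrolases, haem synthesis and breakdown, and transcription factors. In mice 4 of 28 were called, 1 higher and 3 lower, where 4.32% of all symbols were called (3.5% higher, 0.817% lower). Over all rats it was 12 of 24 tested, 1 higher and 11 lower, beside 27.5% of all symbols (15.2% higher, 12.3% lower). In rats 17 to 24 it was 2 of 24, beside 7.26% of all symbols. The later numbers had 16 of 24, 1 higher and 15 lower, beside 43.8% (21.8% higher, 22.1% lower). The median log2 fold change of the list was -0.07 in mice, -0.22 over all rats, -0.11 in rats 17 to 24 and -0.37 in rats 25 to 32.

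**Figure D5:**
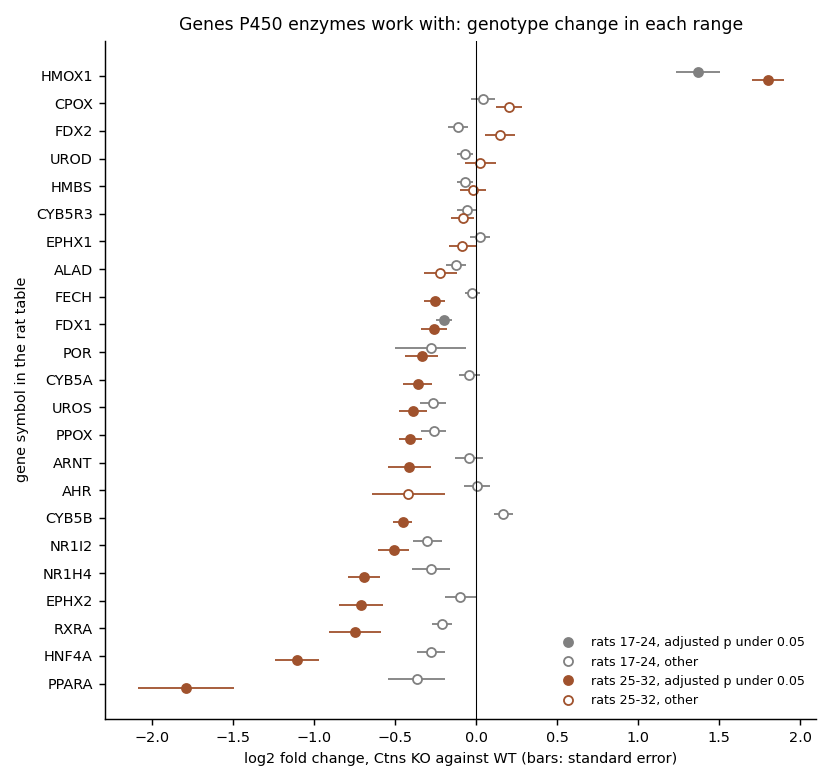
Log2 fold change of KO against WT with its SE for genes that P450 enzymes work with, in rats 17 to 24 (grey) and 25 to 32 (brown); filled points have an adjusted p under 0.05. HMOX1 lies right of 0 in each range, and PPARA and HNF4A lie furthest left in rats 25 to 32, at -1.79 and -1.10.

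HMOX1, haem oxygenase, which degrades the P450 cofactor, was the gene of the list that rose in rats. It had 14.3, 10.8, 10.7 and 11.6 CPM in KO rats 18, 20, 22 and 24, 18.8, 23.6, 20.2 and 21.5 CPM in KO rats 26, 28, 30 and 32, and 3.80 to 5.58 CPM in the 8 WT rats. Every KO rat was above every WT rat, with a KO level 3.09 times that of WT (log2 fold change 1.63, SE 0.18, adjusted p = 7.487e-06, edgeR). In mice it was 26.5 to 32.4 CPM in KO and 18.3 to 27.4 CPM in WT animals, overlapping, and was not called. Enzymes that build haem fell in rats: UROS by 0.33, PPOX by 0.33 and FECH by 0.15 on the log2 scale (adjusted p = 0.000704, 0.0294 and 0.0416, edgeR). The PPOX and FECH calls were lost in 7 and 10 of 21 alternatives, each of which left out 1 rat. In mice FECH fell by 0.22 on the log2(value + 1) scale (adjusted p = 0.0201, limma), a call lost in 3 of 13 alternatives. UROS was called in mice at -0.07 (adjusted p = 0.0462, limma), but not in 11 of 13 alternatives, edgeR on recovered reads among them (-0.22, adjusted p = 0.051).

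Of the epoxide hydrolases, which open the epoxides that CYP2C and CYP2J enzymes make, EPHX2 was called lower in KO in mice and over all rats. It had 240, 229, 219 and 227 CPM in KO mice 3, 5, 6 and 8 and 286, 274, 289 and 235 CPM in WT mice 1, 2, 4 and 7 (log2 fold change -0.26, SE 0.06, adjusted p = 0.0486, limma). KO mouse 3 lay above WT mouse 7, and the call was lost when any 1 of 7 mice was left out (highest adjusted p = 0.132, limma). In rats 25 to 32 it had 10.5 to 13.7 CPM in KO and 15.1 to 20.8 CPM in WT animals, and over all rats the log2 fold change was -0.41 (SE 0.11, adjusted p = 0.0121, edgeR). EPHX1, the microsomal form, rose in mice, with 134, 155, 159 and 143 CPM in KO mice 3, 5, 6 and 8 and 84.0, 76.5, 77.7 and 74.9 CPM in WT mice 1, 2, 4 and 7. These groups were far apart (log2 fold change 0.58, SE 0.05, adjusted p = 0.0032, limma), whereas EPHX1 was not called between genotypes in rats.

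The transcription factors that drive P450 genes in liver and kidney fell in rats where they were called. HNF4A had 214, 166, 189 and 133 CPM in KO rats 26, 28, 30 and 32 and 324, 406, 336 and 287 CPM in WT rats 25, 27, 29 and 31 (log2 fold change over all rats -0.69, SE 0.13, adjusted p = 0.00116, edgeR). PPARA, the receptor behind the CYP4A genes, had 17.8, 6.74, 14.5 and 6.28 CPM in KO rats 26, 28, 30 and 32 and 31.1, 45.1, 34.8 and 29.7 CPM in WT rats 25, 27, 29 and 31 (log2 fold change over all rats -1.01, SE 0.26, adjusted p = 0.0079, edgeR). For HNF4A and PPARA the groups of rats 25 to 32 were separate. In rats 17 to 24 neither was called (adjusted p = 0.0842 and 0.285, edgeR), with log2 fold changes of -0.28 and -0.37. The HNF4A groups overlapped there, with 229.9 to 259.6 CPM in KO and 248.5 to 343.3 CPM in WT animals. NR1H4, NR1I2 and RXRA fell by 0.50, 0.41 and 0.48 on the log2 scale over all rats (adjusted p = 0.0014, 0.00141 and 0.00453, edgeR). FDX1, the ferredoxin of the mitochondrial enzymes such as CYP11A1 and CYP27A1, fell by 0.23 (SE 0.05, adjusted p = 0.00264, edgeR).

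In the interaction test 5 of 24 genes of this list were called, against 14.7% of all symbols, among them CYB5B, HNF4A, PPARA and EPHX2, all with a lower log2 fold change in rats 25 to 32 than in rats 17 to 24. CYB5B, the cytochrome b5 of the outer mitochondrial membrane, was 195 to 207 CPM in KO and 227 to 265 CPM in WT rats 25 to 32, but 246 to 291 CPM in KO and 219 to 260 CPM in WT rats 17 to 24 (difference of log2 fold changes -0.62, SE 0.08, adjusted p = 0.000217, edgeR). Among WT rats 5 of 24 genes of the list differed between the ranges, against 18.3% of all symbols, with EPHX1, CYB5R3, CYB5A and FECH higher and PPOX lower in the later numbers. EPHX1 was 135 to 160 CPM in WT rats 17 to 24 and 202 to 246 CPM in WT rats 25 to 32.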

How the data were processed

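Kidney RNA of 24 animals was sequenced (stranded mRNA libraries, 1 per animal). The submitters' processing notes name bcl2fastq 2.20, STAR 2.7.3, DESeq2 1.24.0 and R 3.6.1, with builds mm10 and rn5; the counting and annotation are not given in the sources used here. For the mouse the authors deposited a scaled signal per symbol, reads plus 0.5 over the library's 75th percentile plus 0.5, worked out from the values; 99.0% gave whole reads within 0.01. The deposited rat values are estimated counts of reads plus 1/6, which was taken off before rounding (97.7% whole). Groups and numbers came from the labels. Nothing says whether the animals of a group come from separate litters, and p-values measure only the spread between these animals.

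In R 4.3.3, the mouse comparison used limma 3.58.1 with its trend and robust settings on log2(value + 1), unfiltered, and the rat comparisons used edgeR 4.0.16 (robust quasi-likelihood, TMM, filterByExpr), each over the whole table, with Benjamini-Hochberg adjustment and a threshold of 0.05. The species interaction used limma on values scaled alike. Levels, promoter matches and overlaps were computed in Python 3. Fits were tested on simulated data. Named were members past the threshold in a genotype comparison or between WT ranges, the 3 most abundant and those without reads per species, and partner genes past the threshold in mice or all rats; exceptions are marked. A member and a partner gene that met this rule are not reported here by name and stay in all counts. Members, lists and ranges were chosen with earlier results of these data known. Alternatives were pseudocount 0.1, filters, DESeq2 1.42.0, its size factors, voom, edgeR on recovered reads, the range as covariate, 1 fit of 16 rats and leaving out each animal. Libraries of the same group all differed by more than counting noise (chi-square divided by its degrees of freedom at least 12.7 for 12 mouse pairs and 8.85 for 56 rat pairs).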

Additional observations from a re-analysis of the deposited data

Results flagged for a closer look

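The genotype change differed between the rat number ranges for 3 members, by the interaction test of edgeR: -0.84 for CYP2C23P, -0.80 for CYP2E1 and -0.51 for CYP4F8 (log2 fold change in rats 25 to 32 less that in rats 17 to 24). In groups of 4 animals, 4 of 72 groups of named members held 1 animal far from the others, where chance gives about 1 in 20. WT rat 17 had 0.9999 CPM of CYP2D6 against 0.375 to 0.471 CPM in the other WT rats 17 to 24. WT rat 21 had 5.31 CPM of CYP2F1 against 3.20 to 3.40 CPM, and 275 CPM of CYP4F8 against 233 to 238 CPM, in the same group. WT rat 29 had 3.36 CPM of CYP7B1 against 4.31 to 4.48 CPM in the other WT rats 25 to 32.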

How the results depend on the processing

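No alternative run turned the direction of a member or partner gene that was called. Of the members given with a value but not called, CYP2C23P turned in the species comparison, to 0.0814 with a pseudocount of 0.1 and 0.16 with edgeR on reads of both species. Leaving out 1 rat turned CYP27A1 in rats 17 to 24 (-2.804e-05 to 0.137), the CYP4A11 interaction (-0.098 to 0.00953) and CYP46A1 between WT ranges (-0.13 to 0.11). In mice 2 members were called, 1 higher and 1 lower, with a mean-value filter of 0.1, edgeR, DESeq2 or voom, and 0 to 2 when 1 mouse was left out. Over all rats, 10 were called with the number range as a covariate, and 5 to 7 when 1 rat was left out. In rats 17 to 24 the count was 3 with DESeq2, 2 without a filter, and 0 to 2 when 1 rat was left out (0 without KO rat 24). In rats 25 to 32 it was 10 to 13, and between WT ranges 8 to 12, when 1 rat was left out. The interaction called 5 with DESeq2 and 3 to 5 when 1 rat was left out. Named calls were lost for CYP2C23P in mice (3 of 13 alternatives), CYP4A11 in rats 17 to 24 (1 of 12), CYP11A1, CYP26A1 and CYP2S1 in rats 25 to 32 (1, 3 and 6 of 12) and CYP4V2 between WT ranges (8 of 10); the cause was not tested. No paired analysis was possible because the labels do not say which KO and WT animals are littermates. With 4 animals a group, small changes and symbols under 10 reads could not be assessed at this depth.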
